A study of Mus musculus with 8 samples.

Results

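The BCL2 family of apoptosis regulators was represented by 10 genes, namely the guardians Bcl2, Bcl2l1 and Mcl1, the effectors Bax and Bak1, and the BH3-only genes Bbc3, Bcl2l11, Pmaip1, Bid and Bad. Members were chosen by gene symbol, and all 22 probes that carry one of these symbols were taken, of 56605 probes on the array. Gene expression was measured in the dentate gyrus, the hippocampal region in which new neurons are added in adult life, with 8 single-colour Agilent arrays that each gave 1 brightness per spot. The mice were C57BL/6 males of 8 to 9 weeks in 4 groups of 2 arrays. Derlin-1_control mice were Derlin-1flox/flox without Cre, and Derlin-1_KO mice carried the floxed gene together with a Cre recombinase driven by the nestin promoter. Derlin-2_control and Derlin-2_KO mice had the same arrangement for Derlin-2flox/flox, and the groups with Derlin-1 or Derlin-2 alleles are called the Derlin-1 and Derlin-2 lines. Derlin-1 and Derlin-2 are proteins of the endoplasmic reticulum (ER) membrane that help to clear misfolded proteins. The nestin promoter is active in neural stem and progenitor cells, so neurons and glia derived from them can carry the deletion, while blood, vessel and microglial RNA in the same dissected tissue comes from cells outside that lineage. No group carried Cre without a floxed gene, and none was wild type. The labels do not say whether the 2 arrays of a group came from separate animals, so p-values measure only the spread between these samples, which may be technical.

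BCL2 family proteins decide whether the outer mitochondrial membrane stays intact. Guardians such as BCL2, BCL-XL (the product of Bcl2l1) and MCL1 bind and restrain the effectors BAX and BAK, which otherwise form pores that release cytochrome c and switch on caspases. BH3-only proteins sense damage and occupy the guardians or act on the effectors directly. In lasting ER stress the transcription factor CHOP is known to act on Bcl2 and Bcl2l11, and p53 is known to induce Bbc3 (PUMA), Pmaip1 (NOXA) and Bax. Much of the family's control lies in protein binding, cleavage and phosphorylation, which mRNA arrays do not measure.

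The comparison asked whether loss of Derlin-1 or of Derlin-2 from the neural lineage moved the mRNA level of these regulators. No member gene passed the threshold in either line. In limma, a linear model fitted across all probes, 0 of 19 measured member probes and 0 of 10 genes had an adjusted p under 0.05 in the Derlin-1 line, where 0% of 39981 probes did. The count was also 0 in the Derlin-2 line, where 0.0452% of 39812 probes passed. At an unadjusted p under 0.05, 1 member probe was past in the Derlin-1 line against 4.69% of all probes, and 0 were past in the Derlin-2 line against 5.51%. That probe was the dimmest of the 3 Bcl2 probes and is described with its gene.

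Signal was well above background on all 8 arrays for 19 of the 22 probes, so every member gene was measured in every group. The other 3 probes were too dim to test, namely the Bcl2l11 probes A_52_P348214 and A_51_P484880, above background on no array, and the Bid probe A_55_P2719920, above background on 1 array. Genes with more than 1 probe numbered 6, and each gene is led here by its brightest probe over the 8 arrays. Probe brightness depends on the probe as well as the transcript, so levels are compared between arrays and never between genes. Signals are log2 intensities after quantile normalization, and a difference is the mean of the KO arrays minus the mean of the control arrays on that log2 scale.

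The arrays had 38247 to 40089 probes well above background and no saturated spot. Spots flagged as outliers numbered 84 to 178 on the Derlin-1 arrays and 278 to 429 on the Derlin-2 arrays. Correlations over probes were 0.987 to 0.995 within groups, 0.988 to 0.993 between KO and control arrays of a line, and 0.965 to 0.985 between lines. All arrays of the Derlin-1 line were on 1 slide and all arrays of the Derlin-2 line on another, so line and slide cannot be told apart. Of the targeted genes, the brightest Derl2 probe gave a log2 difference of -0.65 ± 0.097 (SE) between Derlin-2_KO and control, and the other Derl2 probe -1.05 ± 0.144. Their unadjusted limma p-values were 0.00051 and 0.000317, and the adjusted limma p-values 0.2573 and 0.2173. Both KO arrays lay below both controls at each probe, yet neither passed the adjusted threshold. A count of 0 members past that threshold therefore does not show that their levels were unchanged. The brightest Derl1 probe gave -0.20 ± 0.103 in the Derlin-1 line and the other Derl1 probe 0.46 ± 0.117, both with an adjusted limma p of 0.9999. The Derl1 signal therefore did not settle the Derlin-1 labels, and these groups rest on the labels alone. Where the probes lie relative to the deleted exons was not analysed here.

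Bcl2, the founding guardian of the family, did not pass the test in either line. Its brightest probe, A_52_P534870, read 10.03 and 10.08 in Derlin-1_control, 10.09 and 10.08 in Derlin-1_KO, 10.21 and 10.58 in Derlin-2_control, and 10.66 and 10.56 in Derlin-2_KO. The 4 arrays of the Derlin-1 line were nearly level, KO and control arrays overlapped in both lines, and the lowest Derlin-2 array stood above the highest Derlin-1 array. The difference was 0.03 ± 0.141 (SE) for Derlin-1 and 0.22 ± 0.141 for Derlin-2. As fold changes, the 95% intervals ran from 0.805 to 1.30 and from 0.916 to 1.48. The Derlin-2 value rested on the control arrays, at 0.03 without Derlin-2_control replicate 1 and 0.40 without replicate 2 (adjusted limma p 0.9353 and 0.3213). With normexp, another background correction, it was 0.25, with an unadjusted limma p of 0.0474 and an adjusted p of 0.9965. As the mean of all 3 Bcl2 probes the Derlin-1 value was 0.26, with 0.61 at the dimmest. The second probe, A_51_P380013, gave differences of 0.14 ± 0.148 and 0.19 ± 0.148.

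The dimmest Bcl2 probe, A_52_P438280, is named for the Ensembl transcript ENSMUST00000189999, whereas the other Bcl2 probes are named for NM_009741 and NM_177410. It read 5.36 and 5.27 in Derlin-1_control and 6.03 and 5.83 in Derlin-1_KO, so both KO arrays lay above both controls. In the Derlin-2 line it read 5.52 and 5.19 in control and 5.46 and 5.31 in KO, with full overlap. The Derlin-1 difference was 0.61 ± 0.149, with a 95% interval from 0.25 to 0.98. Its unadjusted limma p was 0.00615 and its adjusted p 0.9999. Its size depended on the processing, at 0.80 with arrays scaled to the 75th percentile, 0.79 in the deposited values and 0.22 with normexp (unadjusted limma p 0.0428). The 95% intervals of the other Bcl2 probes in the Derlin-1 line ended at 0.38 and 0.50, below 0.61 but above the normexp value.

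Bcl2l1 encodes the long guardian BCL-XL and, by alternative splicing, a short form that favours death. Its brightest probe, A_55_P1974877, read 15.04 and 14.76 in Derlin-1_control, 14.78 and 14.67 in Derlin-1_KO, 15.02 and 14.83 in Derlin-2_control, and 14.79 and 14.90 in Derlin-2_KO. KO and control arrays overlapped in both lines. The differences were -0.17 ± 0.137 and -0.08 ± 0.137, and the 95% intervals as fold changes were 0.705 to 1.12 and 0.75 to 1.19. All 5 Bcl2l1 probes had a negative difference in the Derlin-1 line, from -0.17 to -0.62, and none passed the test. Derlin-1_control replicate 1 was the higher of the controls at each of the 5, and without it the brightest probe gave -0.03. At A_66_P122989 and A_52_P510877 the KO means of 8.53 and 7.37 lay above the other control array, at 8.52 and 7.25. At A_55_P1974877, A_51_P299454 and A_55_P2500448 the KO means of 14.73, 6.36 and 5.30 lay below it, at 14.76, 6.40 and 5.56. In the Derlin-2 line 2 of the 5 were negative and 3 positive. The positive ones included A_55_P2500448 (NM_001289739) at 0.92 ± 0.569, which rested on 1 KO array at 7.05 against 5.41 on the other and 5.08 and 5.56 in the controls.

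**Figure D1:**
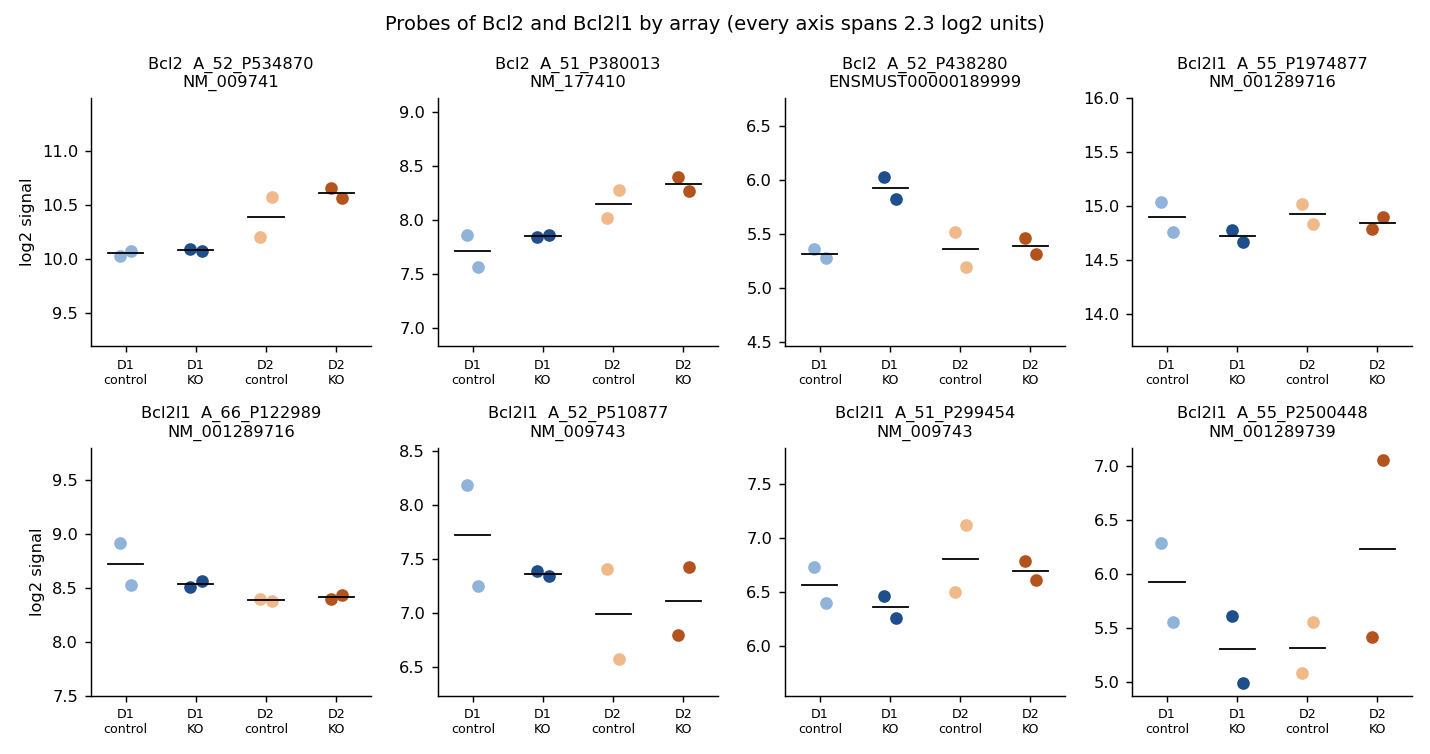
Log2 signal (vertical axis) of the 3 Bcl2 and 5 Bcl2l1 probes on each of 8 arrays, grouped on the horizontal axis as Derlin-1 (D1) and Derlin-2 (D2) control and KO. Points are arrays and horizontal lines are group means. The KO arrays of the Derlin-1 line stand above their controls at the Bcl2 probe A_52_P438280 (6.03 and 5.83 against 5.36 and 5.27), and 1 Derlin-2_KO array is set apart at 7.05 for the Bcl2l1 probe A_55_P2500448.

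Mcl1 encodes a short-lived guardian that many neurons and progenitors depend on. The brightest Mcl1 probe, A_55_P2740649, read 13.80 and 13.55 in Derlin-1_control, 13.68 and 13.55 in Derlin-1_KO, 13.59 and 13.55 in Derlin-2_control, and 13.68 and 13.70 in Derlin-2_KO. The Derlin-1 arrays overlapped, and both Derlin-2_KO arrays lay just above both controls. The differences were -0.06 ± 0.121 and 0.12 ± 0.121, with 95% intervals as fold changes of 0.781 to 1.17 and 0.888 to 1.34. The other Mcl1 probe, A_51_P238786, gave -0.02 ± 0.130 and 0.00 ± 0.130 in the Derlin-1 and Derlin-2 lines. Over the 3 guardians the median difference was -0.06 for Derlin-1 and 0.12 for Derlin-2.

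The effectors Bax and Bak1, whose products form the mitochondrial pore, had narrow intervals. The brightest Bax probe, A_55_P2137406, read 12.07 and 11.95 in Derlin-1_control, 12.07 and 11.97 in Derlin-1_KO, 11.77 and 11.88 in Derlin-2_control, and 11.97 and 11.86 in Derlin-2_KO. KO and control arrays overlapped in both lines. The Bax differences were 0.01 ± 0.109 and 0.09 ± 0.109, with 95% intervals as fold changes of 0.838 to 1.21 and 0.886 to 1.28, and the sign of the first turned negative with other scalings. The second Bax probe, A_51_P254541, gave -0.14 ± 0.151 for Derlin-1 and 0.27 ± 0.151 for Derlin-2, where 9.94 and 10.05 in KO lay above 9.86 and 9.59 in control. Its adjusted limma p in the Derlin-2 line was 0.9796.

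Bak1 (A_55_P2013113) read 10.33 and 10.34 in Derlin-1_control, 10.32 and 10.42 in Derlin-1_KO, 10.48 and 10.47 in Derlin-2_control, and 10.36 and 10.43 in Derlin-2_KO. The Derlin-1 arrays overlapped, and both Derlin-2_KO arrays lay below both controls. The differences were 0.04 ± 0.094 and -0.08 ± 0.094, with 95% intervals as fold changes of 0.875 to 1.20 and 0.808 to 1.11. The change in Bax was also set against the change in each guardian, as a description with no test. On the log2 scale the Bax difference minus the Bcl2 difference was -0.02 for Derlin-1 and -0.13 for Derlin-2, minus the Bcl2l1 difference 0.18 and 0.17, and minus the Mcl1 difference 0.07 and -0.03.

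**Figure D2:**
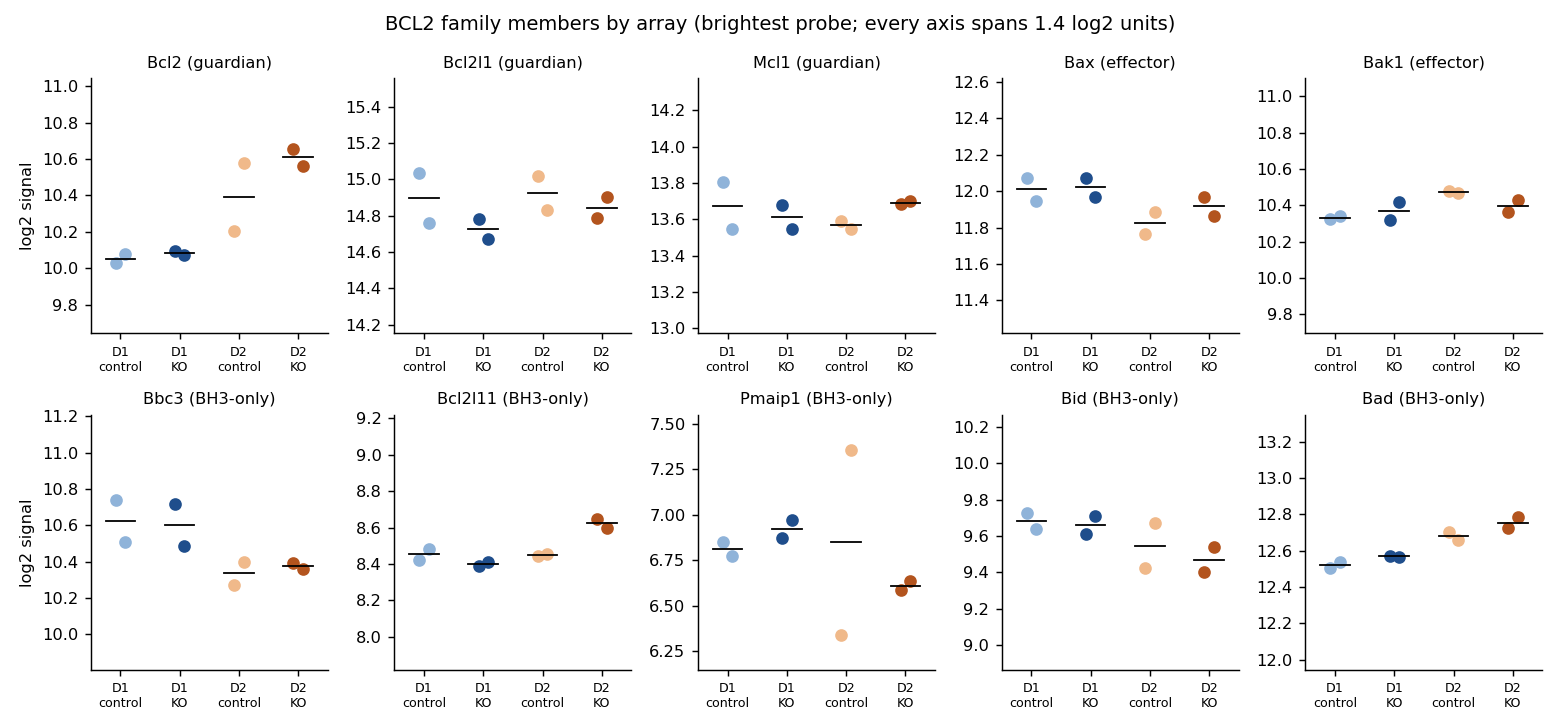
Log2 signal (vertical axis) of the brightest probe of each of the 10 genes on each of 8 arrays, grouped on the horizontal axis as Derlin-1 (D1) and Derlin-2 (D2) control and KO. Points are arrays and horizontal lines are group means. The 2 Derlin-2_control arrays of Pmaip1 lie farthest apart (6.34 and 7.36), and the Bcl2 arrays of the Derlin-2 line lie above those of the Derlin-1 line.

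Among the BH3-only genes, Bcl2l11 had the smallest p of the 10 members by brightest probe. Its product BIM binds all guardians and links ER stress and loss of trophic support to the mitochondrion. Probe A_52_P158527 read 8.42 and 8.48 in Derlin-1_control, 8.39 and 8.41 in Derlin-1_KO, 8.44 and 8.45 in Derlin-2_control, and 8.65 and 8.60 in Derlin-2_KO. Both KO arrays lay below both controls in the Derlin-1 line and above both in the Derlin-2 line. The Derlin-2 difference was 0.18 ± 0.091 (95% interval as a fold change 0.969 to 1.32), with an unadjusted limma p of 0.10 and an adjusted p of 0.9698. The Derlin-1 difference was -0.05 ± 0.091 (0.827 to 1.12), and its sign turned with other scalings. The dimmer Bcl2l11 probe A_55_P2504051 gave -0.20 ± 0.178 and 0.03 ± 0.178.

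Bbc3, which encodes the p53-induced killer PUMA, did not pass the test in either line. Its single probe read 10.74 and 10.51 in Derlin-1_control, 10.71 and 10.49 in Derlin-1_KO, 10.27 and 10.40 in Derlin-2_control, and 10.39 and 10.36 in Derlin-2_KO. The groups overlapped within each line, and the differences were -0.02 ± 0.133 and 0.04 ± 0.133. The 95% intervals as fold changes were 0.786 to 1.23 and 0.821 to 1.29.

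Pmaip1 encodes NOXA, a BH3-only protein that chiefly neutralises MCL1, and it was the least precisely measured member. It read 6.85 and 6.77 in Derlin-1_control, 6.87 and 6.97 in Derlin-1_KO, 6.34 and 7.36 in Derlin-2_control, and 6.58 and 6.64 in Derlin-2_KO. The KO arrays lay above the controls in the Derlin-1 line, and between the controls in the Derlin-2 line. The differences were 0.11 ± 0.309 and -0.24 ± 0.309, and the 95% intervals as fold changes, 0.64 to 1.82 and 0.503 to 1.43, were the widest of the 10 genes. The Derlin-2 value rested on which control array was used: it was 0.27 without Derlin-2_control replicate 2 and -0.75 without replicate 1.

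Bid, whose protein carries the death receptor signal to mitochondria after cleavage by caspase-8, read 9.73 and 9.64 in Derlin-1_control, 9.61 and 9.71 in Derlin-1_KO, 9.42 and 9.67 in Derlin-2_control, and 9.40 and 9.54 in Derlin-2_KO. The groups overlapped in both lines, with differences of -0.02 ± 0.126 and -0.08 ± 0.126. Bad, whose protein is held inactive by growth factor signalling, read 12.51 and 12.54 in Derlin-1_control, 12.57 and 12.56 in Derlin-1_KO, 12.70 and 12.66 in Derlin-2_control, and 12.72 and 12.78 in Derlin-2_KO. Both Bad KO arrays lay above both controls in each line, by 0.05 ± 0.091 and 0.07 ± 0.091. The 95% intervals as fold changes were 0.794 to 1.22 and 0.766 to 1.17 for Bid, and 0.886 to 1.20 and 0.902 to 1.23 for Bad. Over the 5 BH3-only genes the median difference was -0.02 for Derlin-1 and 0.04 for Derlin-2.

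**Figure D3:**
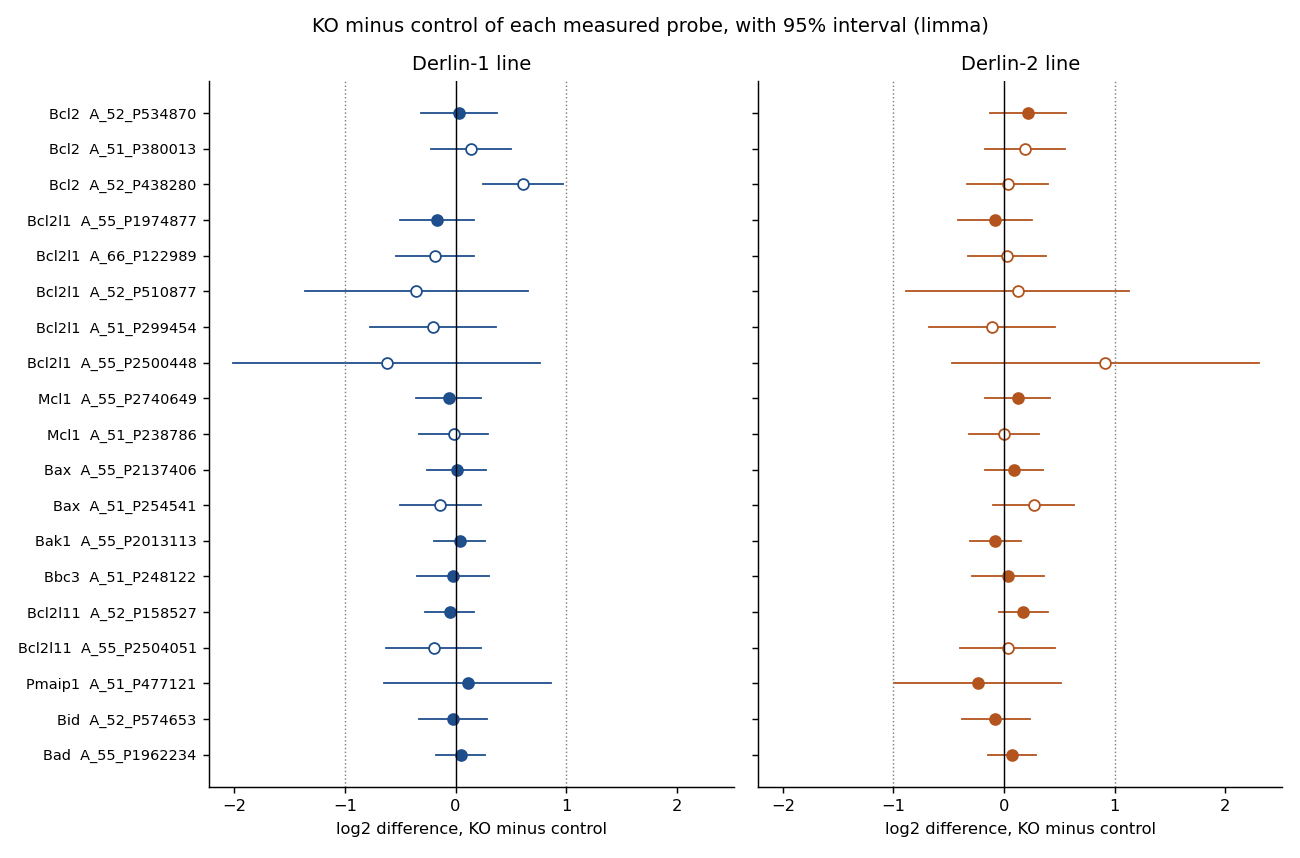
KO minus control on the log2 scale (horizontal axis) for each of the 19 measured probes (vertical axis), in the Derlin-1 and Derlin-2 lines, with 95% intervals from limma. Filled points are the brightest probe of a gene, open points its other probes, and dotted lines mark a 2-fold difference. The interval of the Bcl2 probe A_52_P438280 in the Derlin-1 line, 0.25 to 0.98, is the only 1 that does not reach 0.

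Taken by gene, the 10 differences ran from -0.17 to 0.11 in the Derlin-1 line, with a median of -0.01, and from -0.24 to 0.22 in the Derlin-2 line, with a median of 0.06. The medians over the brightest probe of all genes tested were -0.02 and 0.01. The median absolute difference of the members was 0.042 and 0.086, against 0.102 and 0.105 over all genes tested. Positive and negative differences were 5 and 5 in Derlin-1_KO and 6 and 4 in Derlin-2_KO, none past the test. The 95% interval lay within 2-fold in either direction for all 10 genes in each line, and within 1.5-fold for 9, with Pmaip1 as the exception in both.

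Both KO arrays lay above both controls for 2 genes and below for 1 in the Derlin-1 line, where 17.9% and 17.8% of all probes did so. In the Derlin-2 line the counts were 3 above and 1 below, where the shares of all probes were 17% and 14.2%. Counted over the 19 probes they were 3 above and 2 below for Derlin-1 and 4 above and 1 below for Derlin-2, and no such count stood well over the share of all probes. With 2 arrays against 2, an exact permutation test of a single gene cannot give a two-sided p under 0.333.

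The difference between the lines, Derlin-1 minus Derlin-2, was tested in the same model. No member passed an adjusted p of 0.05, against 0.00754% of all probes, and 1 member probe was past an unadjusted p of 0.05, against 5.85% of all probes. It was again the Bcl2 probe A_52_P438280, at 0.58 ± 0.211, with an unadjusted limma p of 0.0327 and an adjusted p of 0.8252. Bcl2l11 had the smallest p by brightest probe, at -0.23 ± 0.128 with an adjusted limma p of 0.8861. Its KO arrays stood apart from the controls in both lines and in opposite directions, as did those of 6.24% of all probes. All 3 guardians had a negative difference between the lines, at -0.19 for Bcl2 and Mcl1 and -0.09 for Bcl2l1, and none passed the test. The intervals of this comparison were wider, and by brightest probe lay within 2-fold for 9 of the 10 genes and within 1.5-fold for 7.

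The mean effect of both lines, which uses all 8 arrays, gave 0 of 10 genes past the adjusted threshold, against 0.0151% of all probes. At an unadjusted p under 0.05 the Bcl2 probe A_52_P438280 was again the single member probe, at 0.32 ± 0.105 with an adjusted limma p of 0.9998, against 4.39% of all probes. The brightest probes ran from -0.13 for Bcl2l1 to 0.13 for Bcl2, with a median of 0.02.

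Larger than any KO difference by brightest probe were some differences between the lines themselves. All 4 arrays of one line lay apart from all 4 of the other for 7 of the 19 member probes, close to the 35.2% of all probes that did so. The Derlin-2 line was higher for 2 of the 3 Bcl2 probes, by 0.43 and 0.46, for Bad by 0.17, and for the dimmer Bcl2l11 probe by 0.46. It was lower for Bbc3, at -0.26, for the Mcl1 probe A_51_P238786, at -0.32, and for the Bcl2l1 probe A_66_P122989, at -0.22. The lines were on separate slides, so line and slide cannot be told apart in these values. The genes whose signal followed Bcl2l11 most closely over the 8 arrays were Gm32237 (Pearson r 0.986), Ccdc150 (0.97) and the family relative Bcl2l12 (0.965). Bcl2l11 was picked for its Derlin-2 p and the 8 arrays share 2 slides and 1 normalization, so this is a description and no separate result. Ccdc150 was well above background on only 2 of the 8 arrays, with a mean log2 signal of 1.73 over the Derlin-1 arrays and 3.21 over the Derlin-2 arrays.

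The wider apoptosis pathway was read from 5 lists of genes. Of 52 genes measured in them, 0 passed an adjusted p of 0.05 in either line, in the difference between the lines or in the mean effect. At an unadjusted p under 0.05, the counts were 1 for Derlin-1, 2 for Derlin-2, 2 in the difference between the lines and 3 in the mean effect, against 4.69%, 5.51%, 5.85% and 4.39% of all probes. In the Derlin-1 line 23 of the 52 were higher and 29 lower, where 44% of all genes tested were higher, and in the Derlin-2 line 31 were higher and 21 lower, where 52.3% of all genes were higher.

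The other BCL2 relatives were measured for 10 of 15 genes, with medians of -0.05 for Derlin-1 and 0.14 for Derlin-2. Bcl2l12, a relative linked to caspase and p53 inhibition, read 6.01 and 5.96 in Derlin-2_control and 6.71 and 6.38 in Derlin-2_KO. This was the smallest p of the pathway lists, at 0.56 ± 0.132 with an unadjusted limma p of 0.00539 and an adjusted p of 0.5662. In the Derlin-1 line its 4 arrays lay between 5.88 and 6.00. Bmf, a BH3-only gene whose protein is tethered to the cytoskeleton, gave 0.39 ± 0.153 in the Derlin-2 line (adjusted limma p 0.8991). In the Derlin-1 line the 2 smallest p-values were those of Bcl2l15, at -0.54 ± 0.265, and of the mitophagy receptor gene Bnip3l, at -0.09 ± 0.097.

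Downstream of the mitochondrion, 15 of 17 genes for the apoptosome, caspases and their inhibitors were measured, of which 4 were higher and 11 lower in Derlin-1_KO and 11 higher and 4 lower in Derlin-2_KO, none past the test, beside the 44% and 52.3% of all genes that were higher. Apaf1, the scaffold that cytochrome c assembles into the apoptosome, read 8.78 and 8.05 in Derlin-1_control and 7.95 and 7.71 in Derlin-1_KO. It read 7.75 and 7.34 in Derlin-2_control and 7.88 and 7.88 in Derlin-2_KO. Its Derlin-1 difference was -0.58 ± 0.264 (adjusted limma p 0.9999), with 1 control array well above the other. Casp9, the caspase that the apoptosome activates, gave -0.18 ± 0.110 in the Derlin-1 line. The caspase inhibitor gene Xiap gave 0.18 ± 0.112 in the Derlin-2 line.

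Upstream, the ER stress inducers included the gene with the smallest p of all 5 lists in the Derlin-1 line. Xbp1, which encodes a transcription factor of the unfolded protein response, read 13.91 and 13.61 in Derlin-1_control and 14.16 and 14.04 in Derlin-1_KO. It read 13.39 and 13.36 in Derlin-2_control and 13.65 and 13.66 in Derlin-2_KO, so KO arrays lay above controls in both lines. The differences were 0.33 ± 0.128 and 0.28 ± 0.128, with unadjusted limma p-values of 0.0393 and 0.0686 and adjusted p-values of 0.9999 and 0.9429. Trib3, a target of CHOP, gave 0.60 ± 0.295 in the Derlin-1 line, and Eif2ak3, the gene of the ER stress kinase PERK, 0.17 ± 0.104 in the Derlin-2 line. Over the 10 genes of the list the medians were 0.03 and 0.00.

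In the death receptor arm, which reaches the mitochondrion through BID, all 8 genes were measured. The adaptor Fadd gave 0.15 ± 0.089 and 0.17 ± 0.089 in the Derlin-1 and Derlin-2 lines, the receptor Tnfrsf10b gave 0.16 ± 0.122 in the Derlin-1 line, and the caspase-8 inhibitor gene Cflar 0.17 ± 0.142 in the Derlin-2 line, none past the test. Among 9 genes for p53 and its targets the medians were 0.05 for Derlin-1 and -0.06 for Derlin-2. The named genes of that list were Ccng1 at -0.13 ± 0.110 and Sesn2 at 0.12 ± 0.123 in the Derlin-1 line, and Zmat3 at 0.12 ± 0.106 and Cdkn1a at -0.33 ± 0.418 in the Derlin-2 line. Cdkn1a, the cell cycle inhibitor p21, read 7.18 and 8.52 in Derlin-2_control, a spread wider than its difference.

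**Figure D4:**
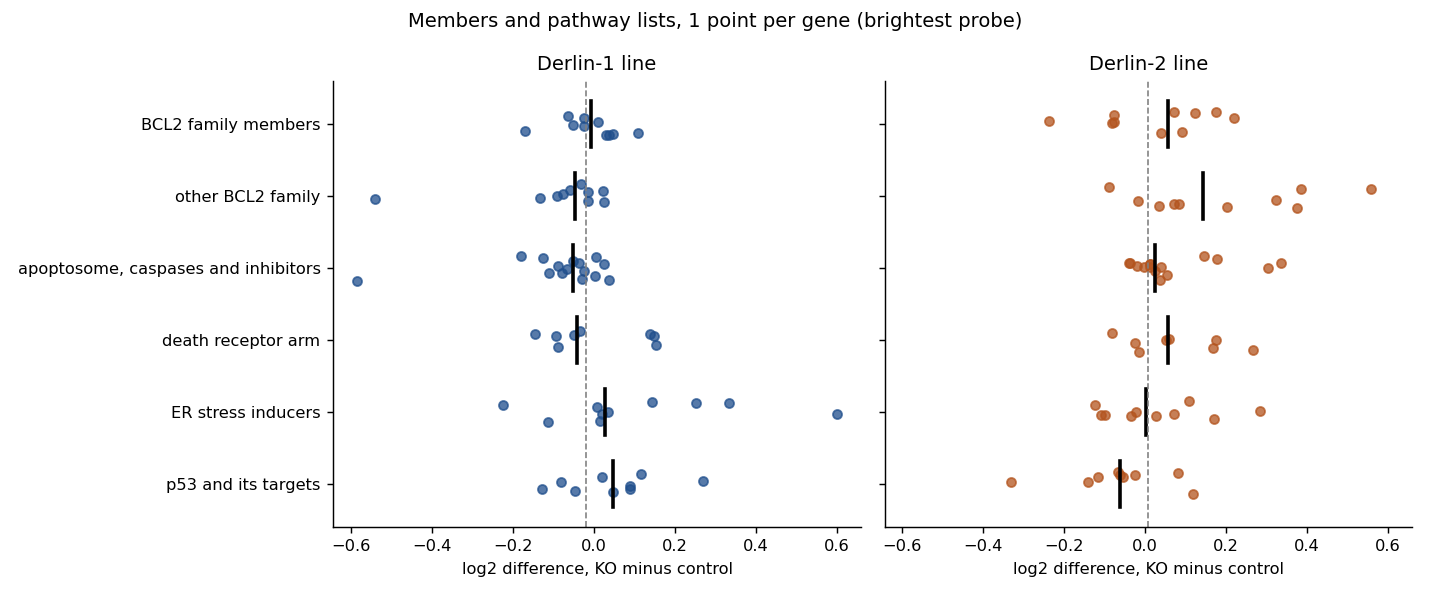
KO minus control on the log2 scale (horizontal axis) for the 10 BCL2 family members and 5 pathway lists (vertical axis), 1 point per gene by its brightest probe. Black bars are list medians and the dashed line is the median of all genes tested. The medians of the members, -0.01 and 0.06, lie within 0.1 of the dashed line in both lines.

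Marker genes of 10 cell types were also read. The granule neuron markers Prox1, Calb1, Dsp and C1ql2 were well above background on all 8 arrays. So were all measured markers of the other types, so detection alone cannot check the dentate gyrus label. In bulk tissue, fewer cells of a type and less RNA per cell cannot be told apart. The log2 summed signal of 4 interneuron markers was 15.91 to 15.98 in Derlin-1_control and 16.17 to 16.36 in Derlin-1_KO, and 16.46 to 16.56 in Derlin-2_control and 16.26 in both Derlin-2_KO arrays. Most of that sum was Sst, with log2 differences of 0.38 and -0.33, whereas Gad1 gave 0.18 and -0.06, Gad2 0.17 and -0.07, and Pvalb 0.03 and 0.04. The sum of 4 microglial markers was 14.62 to 14.67 in Derlin-1_control and 14.42 to 14.50 in Derlin-1_KO. In the Derlin-2 line it overlapped, at 14.68 to 14.96 in control and 14.75 to 14.84 in KO. The sum of 4 newborn neuron markers was 12.58 to 12.83 in Derlin-2_control and 12.98 to 12.99 in Derlin-2_KO. In the Derlin-1 line it overlapped, at 12.74 to 13.19 in control and 12.74 to 12.96 in KO. The granule neuron sum was 14.32 to 14.42 in Derlin-2_control and 14.22 to 14.28 in Derlin-2_KO. The CA pyramidal neuron sum was 14.27 to 14.28 in Derlin-2_control and 14.354 to 14.355 in Derlin-2_KO. The astrocyte sum was 14.935 to 14.95 in Derlin-1_control and 14.97 to 15.00 in Derlin-1_KO. The granule neuron, CA pyramidal and astrocyte sums overlapped in the other line. Of all probes, 17.9% lay above and 17.8% below without overlap in Derlin-1_KO, and 17% and 14.2% in Derlin-2_KO. All 3 measured blood markers had negative differences in both lines, with medians of -0.53 and -0.13, and the sum in Derlin-1_control ranged from 14.88 to 16.03. In the Derlin-2 line the blood sum was 15.57 to 15.77 in control and 15.47 to 15.51 in KO. The sum of 4 choroid plexus markers differed most within the Derlin-2 groups, at 10.84 and 12.04 in control and 12.18 and 10.96 in KO. The higher control array, Derlin-2_control replicate 2, was also the higher one for Pmaip1 and Cdkn1a. Of the KO arrays, replicate 1 had the higher sum. Pmaip1 read 6.58 there against 6.64 on replicate 2, and Cdkn1a 7.69 against 7.34. None of these lists held a called gene, and their part in the member values was not tested.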

How the data were processed

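RNA was taken from dissected dentate gyrus, 150 ng per array, labelled with Cy3 and hybridised to 8 SurePrint G3 mouse arrays, 2 for each of 4 groups read from the sample titles. For each spot the deposited scanner output gives an intensity from which the authors, with Agilent Feature Extraction 10.7.1.1, had subtracted local background and removed spatial trends. The authors' deposited tables hold log2 values, quantile-normalized in GeneSpring and centred on each probe's median over an experiment that included other arrays. These tables gave the probe symbols and an alternative set of values. They also hold the authors' own differences and fold changes, which were not used.

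From the processed intensities, control spots and outlier flags were left out, a floor of 1 was set, log2 was taken, quantiles were equalised across the 8 arrays, and spots of a probe were averaged. Probes had to stand well above background on both arrays of some group, as 40001 of 56605 did. Group means were fitted over all 8 arrays with limma 3.58.1 in R 4.3.3 (4 residual and 2.08 prior degrees of freedom), with Benjamini-Hochberg adjustment over all probes tested and a threshold of 0.05. The procedure was tested on simulated data, with changes larger than any KO minus control difference of the members. That test does not bear on changes as small as theirs. The number of arrays limits the precision.

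The members, gene lists and tests were chosen with earlier results of these data known. Named are all members, Derl1 and Derl2, the 2 genes of smallest p in each pathway list and line (1 of which is not reported here), and 3 genes most like the member of smallest p. Replicate numbers within a line were checked as pairs: deviations from the group means correlated at 0.27 for Derlin-1 and -0.098 for Derlin-2, and nothing in the labels makes a number a shared litter or day. Alternatives were scaling to the 75th percentile, normexp correction with an offset of 50 (on the median spot signal, since the files used here hold no mean signal), other filters on dim probes, the deposited log2 values, only the arrays of a line, leaving out the last eighth of array rows, the mean of all probes of a gene, a replicate block, the methods' t-test, and leaving out each array.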

Additional observations from a re-analysis of the deposited data

Results flagged for a closer look

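For 5 genes both KO arrays lay below both controls in the Derlin-1 line and above both in the Derlin-2 line. These genes were 1 of the 10 members and 4 of the 52 pathway genes measured, where 6.24% of all probes stood apart in opposite directions. That share also counts probes above controls in the Derlin-1 line and below in the Derlin-2 line. The share with the pattern of these genes alone was not counted. The Derlin-1 minus Derlin-2 difference of the KO effects, on the log2 scale, was -0.228 for Bcl2l11, -0.919 for Apaf1, -0.632 for Bcl2l12, -0.174 for Bnip3l and -0.325 for Casp9. The difference was tested in limma and none passed. The adjusted p-values were 0.8861 for Bcl2l11, 0.8511 for Apaf1, 0.7531 for Bcl2l12, 0.9313 for Bnip3l and 0.8631 for Casp9. For Bcl2l11 the sign in the Derlin-1 line turned with the scaling. Each line lay on a slide of its own, so line and slide cannot be told apart.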

How the results depend on the processing

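The number of member probes called by limma was 0 in both lines, in their difference and in their mean effect under each setting run, the replicate block and the leave-one-out settings included. The methods' t-test called 1 member probe in the Derlin-1 line (Bcl2 A_52_P438280) and 2 in the Derlin-2 line (Mcl1 A_55_P2740649 and Bcl2l11 A_52_P158527) before adjustment, and 0 after Benjamini-Hochberg. With the replicate block the median of the members was -0.007 for Derlin-1 and 0.056 for Derlin-2, as without it. The block leaves each difference unchanged, so these medians could not move. The median in the Derlin-2 line was -0.002 without the last eighth of array rows, which left out the brightest Bcl2 probe and the Bbc3 probe, and the cause was not tested. When each array was left out in turn, the median ran from -0.039 to 0.031 and from 0.022 to 0.102.

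Of 192 single values under other settings, 185 kept their sign, but many of them could not change. The other filters, the arrays of a line alone, leaving out array rows and the replicate block leave a probe's difference as it was. The Bax difference in the Derlin-1 line was -0.015 at the 75th percentile, -0.034 with normexp, -0.025 in the deposited values and -0.063 as the mean of its probes. The Bcl2l11 difference there was 0.012 at the 75th percentile and 0.001 in the deposited values. The Bcl2l1 difference in the Derlin-2 line was 0.174 as the mean of its probes. The cause was not tested in these cases. Of 176 values with 1 array left out, 161 kept their sign. Leaving out an array of the Derlin-1 line cannot change the Derlin-2 values, or the reverse, so many of these signs were fixed. In the Derlin-1 line the ranges that crossed 0 were -0.191 to 0.066 for Mcl1, -0.053 to 0.074 for Bax, -0.013 to 0.089 for Bak1, -0.137 to 0.091 for Bbc3 and -0.074 to 0.024 for Bid. In the Derlin-2 line they were -0.175 to 0.011 for Bcl2l1, -0.024 to 0.103 for Bbc3, -0.749 to 0.273 for Pmaip1, -0.201 to 0.048 for Bid and -0.133 to 0.196 for the Bcl2 probe A_52_P438280.

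Over all probes, 18 were called in the Derlin-2 line, against 2 with normexp, 29 with no filter, 2 with the strictest filter, 4 without the last eighth of rows, 0 with the deposited values, the arrays of the line alone or the replicate block, and 4 to 55 with 1 array left out. The Derlin-1 line had 0 under these settings, except for 1 when Derlin-1_control replicate 2 was left out. The difference between the lines, with 3 calls, had 0 to 21 over the settings, and the mean effect, with 6 calls, 0 to 25. The deposited values and the arrays of 1 line alone cannot give the difference or the mean effect.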
